A study of Rattus norvegicus with 2 samples.

Results

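The genes described here encode the core of the TGF-beta pathway, namely the cytokine Tgfb1, its receptors Tgfbr1, Tgfbr2 and Tgfbr3, the signal carriers Smad2, Smad3 and Smad4, the inhibitor Smad7 and the corepressors Ski and Skil. Members were all probe sets whose platform annotation gives 1 of these 10 symbols. There were 14 such probe sets among 31099 on the array, and they covered 8 of the 10 genes. Tgfbr2 and Ski had no probe set listed under their symbol or gene number, so the receptor that binds the cytokine first was not analysed here.

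Transcripts were compared between 2 subsets of natural killer (NK) cells, the lymphocytes that kill infected or altered cells, sorted from the spleens of 9 PVG.7b rats aged 8 to 12 weeks. The cells were sorted as CD3-, NKR-P1A+ and single-positive either for NKR-P1B, an inhibitory lectin-like receptor, or for Ly49s3, an activating receptor of the Ly49 family, to a purity above 90%. The sources used here do not say how the rats' cells were pooled. Each population was hybridised to 1 Affymetrix rat expression array, so there was no replicate error and no test was possible, and every difference describes these 2 arrays.

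TGF-beta is secreted in a latent form and, once released, binds a type II receptor, which recruits and phosphorylates the type I receptor. The type I receptor phosphorylates SMAD2 and SMAD3, which join SMAD4, and the complexes switch genes on or off in the nucleus. SMAD7 blocks the type I receptor, and SKI and SKIL (SnoN) hold SMAD complexes in a repressed state. The genes of SMAD7 and SKIL are themselves switched on by the pathway in many cell types, which makes them common readouts of it. In mouse and human NK cells TGF-beta restrains cytotoxicity, interferon gamma production and maturation.

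The promoters of these 2 feedback genes are shown because both genes are known to respond to SMADs. Each sequence is the 250 bases before the RefSeq gene start in the GRCr8 build, 5′ to 3′ on the gene's strand. Capitals mark CAGAC, the core of the SMAD binding element, or its reverse complement GTCTG.
Skil promoter, chr2:114203573-114203822, minus strand: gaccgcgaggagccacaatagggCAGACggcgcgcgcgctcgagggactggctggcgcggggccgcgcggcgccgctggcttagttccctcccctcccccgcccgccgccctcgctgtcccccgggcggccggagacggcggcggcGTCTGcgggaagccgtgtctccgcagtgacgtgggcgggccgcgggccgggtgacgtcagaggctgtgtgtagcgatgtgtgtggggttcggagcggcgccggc
Smad7 promoter, chr18:71263258-71263507, plus strand: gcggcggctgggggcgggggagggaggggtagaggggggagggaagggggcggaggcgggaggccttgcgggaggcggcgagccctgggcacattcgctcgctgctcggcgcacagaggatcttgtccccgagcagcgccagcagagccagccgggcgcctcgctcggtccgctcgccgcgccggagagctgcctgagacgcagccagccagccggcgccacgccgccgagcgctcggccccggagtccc
Searched on both strands, CAGAC had matches in the Skil window at positions −227 and −104 from the gene start and none in the Smad7 window. In all, 1 of the 11 windows of the 10 genes (Smad2 has 2 annotated starts) held it, against 42.9% of 33469 rat promoter windows of the same length. The palindrome GTCTAGAC, which ends in the last letters of CAGAC but does not contain it, was in none of the 11 and in 0.173% of all windows. The 2 Smad2 windows overlap, and the Smad4 window had 30.8% G and C, against 58% to 82.8% in the others. Whether each annotated start marks a promoter was not tested. A match of letters does not show that a factor binds there, and its absence from these windows says nothing of sites elsewhere.

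Signals of the pathway's core were close to even between the 2 populations. A signal was counted as measured if it exceeded a floor of 20.4 arbitrary units, the 50th percentile of all signals, on at least 1 array. This held for 9 of the 14 probe sets and 7 genes, all above the floor on both arrays. None of the 9 was 1.5-fold apart, and 6 differed by under 10%. Of all 10940 probe sets with 1 gene symbol above the floor on both arrays, 9.63% were at least 1.5-fold apart, a share that 9 probe sets are too few to be set apart from. Scaling both arrays to their poly-A spikes instead put 3 of the 9 past 1.5-fold, all higher in NKR-P1B+ cells, while the median of all such probe sets moved to 0.46, so the evenness is relative to the bulk of transcripts. On the deposited scale the median log2 difference of the 7 genes, NKR-P1B+ minus Ly49s3+, was −0.02, as was that of all 9114 measured genes, whose SD was 0.42. As a measure of precision, the SD of the disagreement between probe sets of the same gene was divided by the square root of 2. This gives the spread of 1 probe set, called the probe set SD or SD below. On the log2 scale it was 0.36 for signals up to 50 and 0.29 from 50 to 200. From 200 to 800 it was 0.22, and above 800 it was 0.15. It holds no variation between animals, between sorts or between hybridisations. Pairs of probe sets were placed in these ranges by the mean of their 2 log2 signals. The signals of a pair could lie far apart, so the SD is not that of probe sets alike in signal. In sorted bulk cells, fewer cells expressing a gene and less RNA per cell cannot be told apart.

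**Figure D1:**
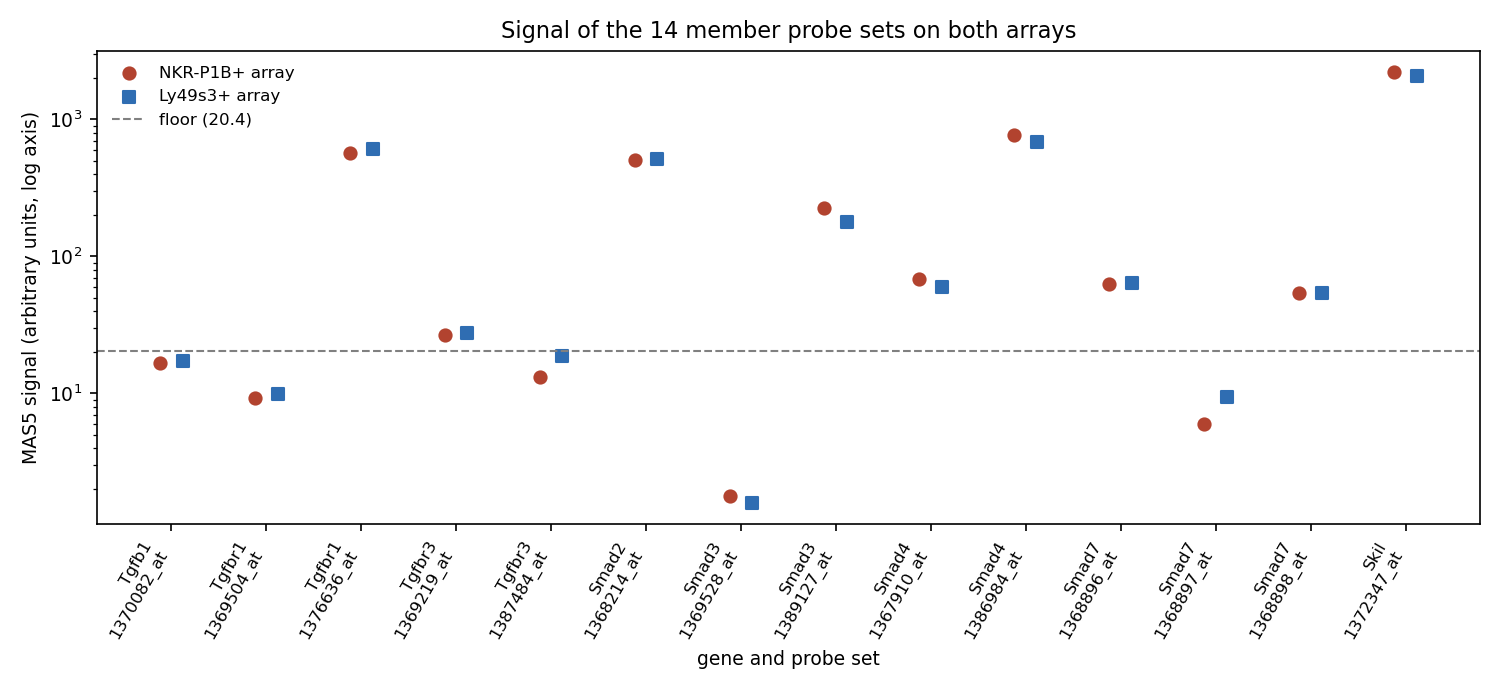
MAS5 signal (arbitrary units, log axis) of the 14 probe sets of the TGF-beta pathway core in NKR-P1B+ cells (circles) and the Ly49s3+ array (squares), 1 array each. The dashed line is the floor of 20.4, and 5 probe sets lie below it on both arrays.

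Of the ligand and receptors, Tgfbr1 alone had a signal far above the floor. Tgfb1, which encodes the cytokine, had 16.8 in NKR-P1B+ cells and 17.2 in Ly49s3+ cells, both below the floor, so no fold is given. Tgfbr1, the type I receptor kinase, had 567.8 in NKR-P1B+ cells and 611.6 in Ly49s3+ cells with probe set 1376636_at. That is a log2 difference of −0.11, within the probe set SD of 0.22. Its other probe set, 1369504_at, was below the floor, at 9.2 in NKR-P1B+ cells and 9.9 in Ly49s3+ cells. Tgfbr3, the coreceptor betaglycan that presents TGF-beta to the signalling receptors, lay just above the floor with probe set 1369219_at, at 26.6 in NKR-P1B+ cells and 27.7 in Ly49s3+ cells. Its log2 difference was −0.06. The second Tgfbr3 probe set, 1387484_at, was below the floor at 13.2 in NKR-P1B+ cells and 18.7 in Ly49s3+ cells, which are too dim to compare. Thus both measured receptor genes were nominally lower in NKR-P1B+ cells by less than probe sets of a single gene differ.

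The signal carriers held the largest difference of the group. Smad3, a receptor-activated SMAD that binds DNA directly, had 227.1 in NKR-P1B+ cells and 179.0 in Ly49s3+ cells with probe set 1389127_at. It was 1.27-fold higher in NKR-P1B+ cells, a log2 difference of 0.34 that is 1.58 times the probe set SD. Its signals lie on either side of 200, the edge of the range used. The SD of the range below is 0.29, which brings the difference closer to 1 SD. Of probe sets in the range used, from 200 to 800, 82.8% had a smaller difference in size. The value therefore lies inside the ordinary spread of this pair of arrays. The other Smad3 probe set, 1369528_at, gave 1.8 in NKR-P1B+ cells and 1.6 in Ly49s3+ cells and was not measured, so only 1 probe set carries the Smad3 result.

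Smad2, the other SMAD activated by TGF-beta receptors, had 500.7 in NKR-P1B+ cells and 513.0 in Ly49s3+ cells, a log2 difference of −0.04. Smad4, the shared partner of all receptor-activated SMADs, had both its probe sets above the floor. Probe set 1386984_at gave 762.7 in NKR-P1B+ cells and 679.0 in Ly49s3+ cells, and 1367910_at gave 68.5 in NKR-P1B+ cells and 60.3 in Ly49s3+ cells. Both put Smad4 slightly higher in NKR-P1B+ cells, by log2 differences of 0.17 and 0.18, and both are within the SD of their signal range. The 2 readings of Smad4 come from the same RNA and arrays and are not replicates of the cells.

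The feedback genes were even within the probe set SD. Smad7 had 62.7 in NKR-P1B+ cells and 63.5 in Ly49s3+ cells with probe set 1368896_at, and 53.8 in NKR-P1B+ cells and 54.3 in Ly49s3+ cells with 1368898_at. The log2 differences were −0.02 and −0.01, within the SD of 0.29 and the smallest in size of the 9 on the deposited scale. With the loess trend subtracted, Tgfbr3 had a smaller difference, 0.021, than Smad7, 0.038 and 0.052. The remaining Smad7 probe set, 1368897_at, was below the floor at 6.0 in NKR-P1B+ cells and 9.4 in Ly49s3+ cells. Skil, whose promoter holds both CAGAC matches shown above, had 2204.4 in NKR-P1B+ cells and 2069.4 in Ly49s3+ cells. Its log2 difference of 0.09 is within the SD of 0.15 for signals above 800.

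**Figure D2:**
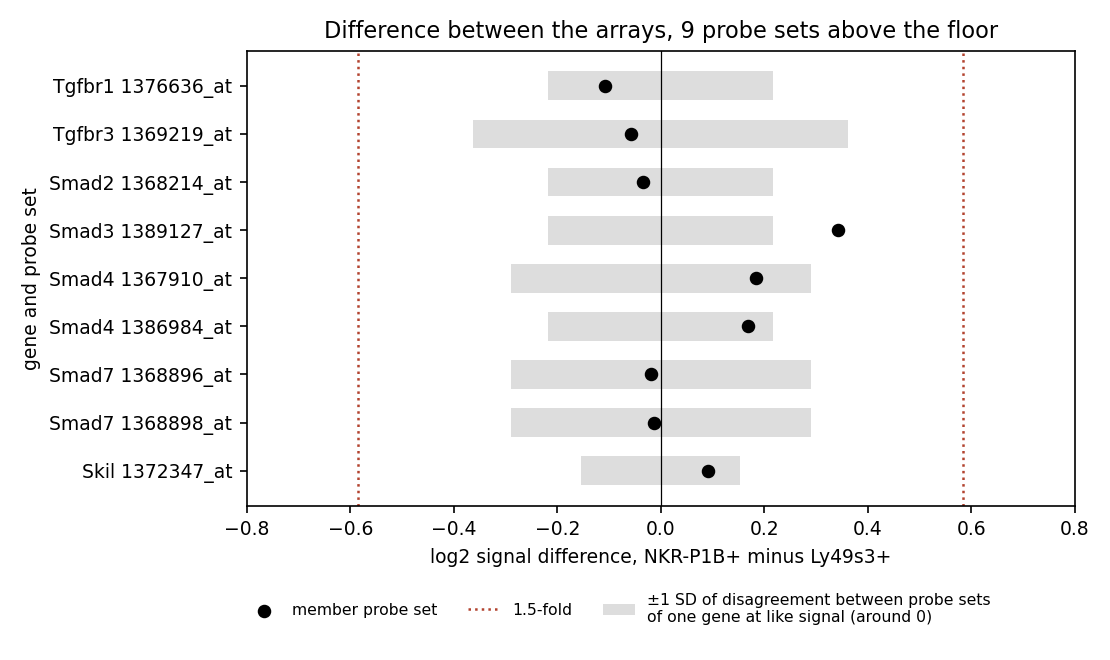
Log2 signal difference (NKR-P1B+ minus Ly49s3+) of the 9 probe sets above the floor on both arrays (points). Grey bars span 1 probe set SD either side of 0, the scaled disagreement between probe sets of the same gene defined above. The signal ranges, called like signal in the legend, are of the mean signal of each pair. Dotted lines mark 1.5-fold. Only Smad3, at 0.34, lies outside its bar, and no point reaches 1.5-fold.

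The wider pathway was examined in 9 lists of other genes that supply, receive, modify or respond to the signal. Leaving out the members, 103 genes were measured of 147 listed, and 90 of them were within 1.5-fold. At least 1.5-fold apart were 12.6% of the 103, against 10.8% of all measured genes. Of these, 7 were higher in NKR-P1B+ cells and 6 lower, where 5.06% and 5.72% of all measured genes were. The shares are near the background, and with lists chosen by hand nothing is read from the gap. The differences that passed 1.5-fold are given by role below.

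Among other ligands of the family, 5 of 13 listed genes were measured. Gdf11, a growth factor that acts through activin receptors, was 1.70-fold higher in NKR-P1B+ cells, at 37.3 against 21.9 in Ly49s3+ cells. Bmp7, a bone morphogenetic protein, had 31.1 in NKR-P1B+ cells and 77.6 in Ly49s3+ cells, 2.50-fold higher in Ly49s3+ cells, the largest gap among the ligands. Tgfb2, a second TGF-beta isoform, had 86.0 in NKR-P1B+ cells and 57.9 in Ly49s3+ cells, just short of 1.5-fold. All of these are low signals. Bmp2 had 26.9 in NKR-P1B+ cells and 15.7 in Ly49s3+ cells, and the inhibin alpha gene Inha had 12.5 in NKR-P1B+ cells and 25.6 in Ly49s3+ cells, each above the floor on 1 array only.

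No gene of latent TGF-beta storage and activation was 1.5-fold apart among 4 measured. Nrros, which encodes a protein that tethers latent TGF-beta on myeloid cells and microglia, had 856.2 in NKR-P1B+ cells and 937.7 in Ly49s3+ cells. The proprotein convertase gene Furin, whose enzyme cleaves the TGF-beta precursor, had 84.4 in NKR-P1B+ cells and 68.3 in Ly49s3+ cells. Itgav, the alpha-v integrin chain that can release latent TGF-beta, had 76.5 in NKR-P1B+ cells and 52.2 in Ly49s3+ cells, with log2 differences from 0.18 to 0.55 over its 3 measured probe sets.

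Of the other receptors of the superfamily, 4 were measured. Bmpr2, the type II receptor for bone morphogenetic proteins, was 1.81-fold higher in NKR-P1B+ cells at signals close to the floor, 38.4 against 21.2 in Ly49s3+ cells. Acvr2a, a type II activin receptor, had 211.3 in NKR-P1B+ cells and 198.5 in Ly49s3+ cells. The decoy receptor gene Bambi had 64.0 in NKR-P1B+ cells and 55.1 in Ly49s3+ cells. Amhr2, the receptor for anti-Müllerian hormone, had 28.0 in NKR-P1B+ cells and 27.5 in Ly49s3+ cells. Smad5, a carrier of bone morphogenetic protein signals, had 602.9 in NKR-P1B+ cells and 635.9 in Ly49s3+ cells, though its 4 measured probe sets ranged from −0.75 to 0.15. Smad1 had 30.2 in NKR-P1B+ cells and 19.6 in Ly49s3+ cells, and the inhibitory Smad6 had 23.9 in NKR-P1B+ cells and 20.2 in Ly49s3+ cells, so neither cleared the floor on both.

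Of 19 measured receptor and SMAD regulators, 17 were within 1.5-fold. Ppm1a, a phosphatase that dephosphorylates SMAD2 and SMAD3, was 1.61-fold higher in NKR-P1B+ cells (43.5 against 27.0 in Ly49s3+ cells). Nedd4l, a ubiquitin ligase that marks activated SMAD2 and SMAD3 for degradation, had 47.7 in NKR-P1B+ cells and 80.4 in Ly49s3+ cells and was 1.69-fold higher in Ly49s3+ cells. By their brightest probe sets, the brightest regulators were close to even. Strap, a partner of SMAD7, had 1328.5 in NKR-P1B+ cells and 1397.9 in Ly49s3+ cells. Trim33, a SMAD4 ubiquitin ligase, had 787.9 in NKR-P1B+ cells and 871.7 in Ly49s3+ cells. Fkbp1a, which binds the type I receptor and keeps it inactive, had 659.7 in NKR-P1B+ cells and 642.6 in Ly49s3+ cells. The 3 measured probe sets of Fkbp1a disagreed in sign, with log2 differences from −0.25 to 0.13.

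Among 26 measured transcription partners of SMADs, 22 were within 1.5-fold and the median was −0.08. The corepressor gene Tgif1 was 1.55-fold higher in NKR-P1B+ cells (645.3 against 417.5 in Ly49s3+ cells), and the AP-1 gene Junb was 1.60-fold higher (1274.4 against 795.8 in Ly49s3+ cells). Runx1, a transcription factor of blood cells, was 2.12-fold higher there (92.9 against 43.8 in Ly49s3+ cells). Sox4 had 88.8 in NKR-P1B+ cells and 139.2 in Ly49s3+ cells and was 1.57-fold higher in Ly49s3+ cells. The 2 measured probe sets of Sox4 gave log2 differences of −0.65 and −0.61. The brightest partners within 1.5-fold were the AP-1 genes Fos, Jun and Jund. Fos had 3214.5 in NKR-P1B+ cells and 3002.8 in Ly49s3+ cells. Jun had 3110.4 in NKR-P1B+ cells and 2621.9 in Ly49s3+ cells, with log2 differences from 0.25 to 0.36 over 3 measured probe sets. Jund had 2040.7 in NKR-P1B+ cells and 2169.5 in Ly49s3+ cells, and its 2 measured probe sets had log2 differences of −0.40 and −0.09.

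Of 15 measured genes that carry TGF-beta signals without SMADs, Rock2, a kinase downstream of RhoA, was the only one 1.5-fold apart, with 36.4 in NKR-P1B+ cells and 61.5 in Ly49s3+ cells. Its 3 measured probe sets disagreed in sign, from −0.76 to 0.37. Rhoa had 1108.9 in NKR-P1B+ cells and 872.1 in Ly49s3+ cells, and its 2 measured probe sets had log2 differences of 0.35 and 0.58. Tab2, an adaptor of the kinase TAK1, had 1176.6 in NKR-P1B+ cells and 1028.0 in Ly49s3+ cells. The ubiquitin ligase gene Traf6 had 756.4 in NKR-P1B+ cells and 862.7 in Ly49s3+ cells. The probe sets of Traf6 ranged from −0.42 to 1.06, so its direction is uncertain.

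Genes known to rise with TGF-beta in various cell types had a median of 0.15 over 18 measured, with 13 nominally higher in NKR-P1B+ cells, as were 47.6% of all measured genes. The 18 include the members Smad7 and Skil. Of these 18, 3 were at least 1.5-fold apart, where 10.8% of all measured genes were, and 18 genes are too few to be set apart from that share. Besides Junb and Tgif1, this was Rgs16, a brake on G protein signals, with 316.0 in NKR-P1B+ cells and 1036.9 in Ly49s3+ cells, 3.28-fold higher in Ly49s3+ cells. The transcription factor gene Bhlhe40 had 1782.5 in NKR-P1B+ cells and 1328.1 in Ly49s3+ cells, and Tsc22d3, known mainly as a glucocorticoid-induced gene, had 1388.8 in NKR-P1B+ cells and 1375.1 in Ly49s3+ cells. Rgs16 and Tsc22d3 are less established responders to TGF-beta than the rest of the list. The integrin gene Itgae, which TGF-beta raises in tissue-resident lymphocytes, had 65.4 in NKR-P1B+ cells and 71.2 in Ly49s3+ cells. Itga1, an integrin chain of tissue-resident NK cells, had 154.5 in NKR-P1B+ cells and 139.1 in Ly49s3+ cells. Klf10, a transcription factor that TGF-beta induces, had 124.6 in NKR-P1B+ cells and 89.8 in Ly49s3+ cells. Pmepa1, an induced inhibitor of SMAD signalling, had 32.2 in NKR-P1B+ cells and 23.6 in Ly49s3+ cells. Klf10 was thus 1.39-fold and Pmepa1 1.36-fold higher in NKR-P1B+ cells, both short of 1.5-fold. These 4 genes were chosen after their values were seen.

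Genes known to fall with TGF-beta in mouse or human NK cells had a median of 0.25 over 15 measured. Of these, 11 were nominally higher in NKR-P1B+ cells, where 47.6% of all measured genes were. Of the 15, 8 are also NK cell markers, and the 14 NK cell markers had the same median of 0.25, with 9 nominally higher. Both lists, of opposite known responses, had positive medians, and a difference in TGF-beta signalling was not tested. Gzmb, a granzyme, was 1.56-fold higher in NKR-P1B+ cells (3972.8 against 2549.2 in Ly49s3+ cells). The 2 measured probe sets of Gzmb gave log2 differences of 0.64 and 0.69. Similar granzyme genes may share its probes, which was not tested. Fcgr3a, an Fc receptor chain, had 62.9 in NKR-P1B+ cells and 102.3 in Ly49s3+ cells and was 1.63-fold higher in Ly49s3+ cells. That is a single dim probe set. The brighter Eomes, also an NK cell marker, had 1236.7 in NKR-P1B+ cells and 1820.5 in Ly49s3+ cells. Its 2 measured probe sets had log2 differences of −0.56 and −0.72. Eomes is named here after its values were seen. The perforin gene Prf1 had 4023.5 in NKR-P1B+ cells and 3006.3 in Ly49s3+ cells. Gzma, another granzyme, had 3513.6 in NKR-P1B+ cells and 2500.1 in Ly49s3+ cells. Hcst, which encodes the adaptor DAP10, had 2195.4 in NKR-P1B+ cells and 1831.3 in Ly49s3+ cells.

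**Figure D3:**
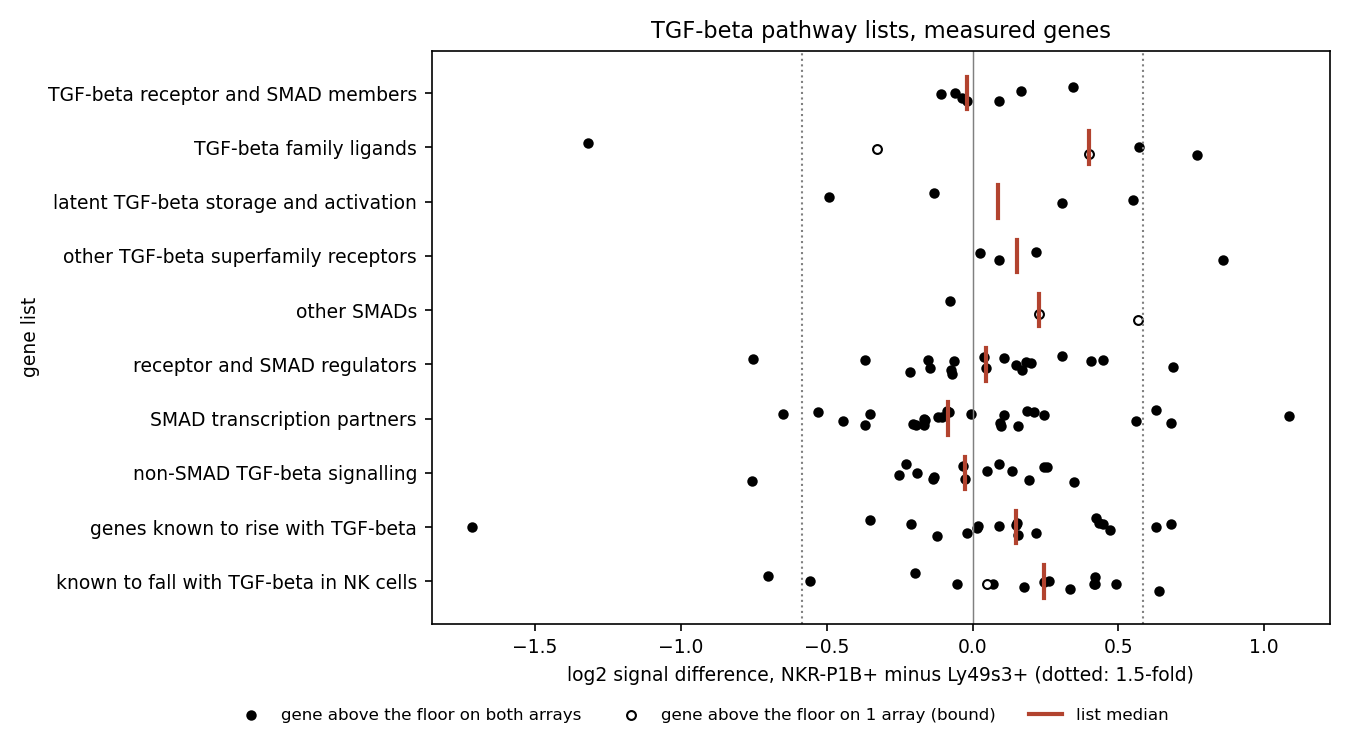
Log2 signal difference (NKR-P1B+ minus Ly49s3+) of each measured gene, by its brightest probe set, in the TGF-beta pathway core (top) and 9 lists of related genes. Filled points were above the floor on both arrays, open points on 1 (bounds), red bars are list medians and dotted lines mark 1.5-fold. The core spans −0.11 to 0.34, while genes of the other lists reach −1.71 for Rgs16 and 1.08 for Runx1.

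The labels were checked with the sorted receptor. Klrb1b, which encodes NKR-P1B, had 1398.6 in NKR-P1B+ cells and 29.4 in Ly49s3+ cells, and Ly49s3 has no probe set listed under its symbol alone. All 14 NK cell markers on the array were above the floor on both arrays. Among markers of other cells, all 5 neutrophil genes were below the floor, as were 8 of 9 macrophage genes, Lyz2 being the exception at 356.3 in NKR-P1B+ cells and 133.0 in Ly49s3+ cells. Of 6 platelet genes, which matter here because platelets store TGF-beta, Pf4 alone was above the floor on both arrays, at 30.9 in NKR-P1B+ cells and 26.6 in Ly49s3+ cells. The 9 T cell genes on the array, 6 of them measured, had summed signals of 2587.7 in NKR-P1B+ cells and 1126.9 in Ly49s3+ cells. Cd3d and Cd3e were below the floor on both arrays, and Cd3g had 22.3 in NKR-P1B+ cells and 42.9 in Ly49s3+ cells. Cd5 went the other way, at 92.7 in NKR-P1B+ cells and 40.8 in Ly49s3+ cells, as did Cd6, at 273.1 in NKR-P1B+ cells and 179.4 in Ly49s3+ cells. Most of the sum was Cd8a, which rat NK cells carry too, at 2151.1 in NKR-P1B+ cells and 767.4 in Ly49s3+ cells. The erythroid markers pointed both ways. Hbb had 276.3 in NKR-P1B+ cells and 152.8 in Ly49s3+ cells, and Hemgn had 50.6 in NKR-P1B+ cells and 131.1 in Ly49s3+ cells. Kdr, an endothelial marker, was at least 2.65-fold higher in NKR-P1B+ cells (54.1 against 11.8 in Ly49s3+ cells). Vwf, the only other stromal or endothelial gene measured, went the other way, at 23.9 in NKR-P1B+ cells and 30.9 in Ly49s3+ cells. These marker genes were named after their values were seen. The part of other cells in the list differences was not tested.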

How the data were processed

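The authors deposited 1 intensity per probe set and array, on a linear scale, made by MAS5 according to the submitters' processing notes, which give no version, scaling target or detection call here. With 2% trimmed at either end both arrays averaged 100.04, so the values share a scale and were not centred, and the number of arrays limits the precision.

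Gene names come from the annotation of the platform, and gene numbers of all 14 member probe sets matched RefSeq symbols of the GRCr8 assembly. The array has no stated build, so coordinates are given only for promoters. Of 31099 probe sets, 436 had several symbols and 9831 none listed, and these were left out of gene results. Values were floored at 20.4 and converted to log2 with numpy 2.4.6. A gene was represented by its brightest probe set (highest mean log2 signal). A fold that involves a floored value is a bound. No column was left unused. With 1 array a population, no p-value can be had.

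The members and lists were chosen with earlier results of these data known. The rule named every member probe set and, per list, all measured genes at least 1.5-fold apart and the 3 brightest within it. The 8 lists of cell type markers describe NK, T and B cells, macrophages, neutrophils, platelets, erythroid cells and stroma. Of 6 B cell genes on the array 1 was measured, of 5 erythroid genes 3, and of 9 stromal genes 2. Other settings were floors at the 35th and 65th percentiles, log2 of the value plus 32, median centring, quantile normalisation, a subtracted loess trend (span 0.3, statsmodels 0.14.6) and scaling to the poly-A spikes. The calculation of differences was tested on simulated data.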

Additional observations from a re-analysis of the deposited data

How the results depend on the processing

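On the deposited scale, 0 member probe sets were 1.5-fold apart. This also held with the lower floor, centring, quantile normalisation and the loess trend. It held too with the higher floor, the added 32 and 2-fold as the line, but these could not have raised the count. Over these 7 treatments including the one reported, and leaving out the poly-A scaling, Smad3 ranged from 0.30 to 0.37, Smad4 from 0.12 to 0.24 over its 2 probe sets, Skil from 0.04 to 0.12, Tgfbr1 from −0.12 to −0.08 and Smad2 from −0.05 to −0.01. Smad7 and Tgfbr3 crossed 0, from −0.02 to 0.05 and from −0.06 to 0.04, that of Tgfbr3 over 6 treatments because the Tgfbr3 probe set is below the higher floor. Scaling to the 17 poly-A spike probe sets above the floor, whose log2 differences spread from −0.97 to 0.21 around a mean of −0.49, moved the median of all probe sets above the floor on both arrays to 0.46. All 9 member probe sets were then positive, from 0.38 to 0.83, and 3 passed 1.5-fold in favour of NKR-P1B+ cells (Smad3 and both of Smad4). Relative to that shift 0 were, with a range from −0.08 to 0.37. The reported evenness is therefore relative to the bulk of transcripts, and the cause of the spike difference was not tested. With this scaling the median was 0.47 for the member genes, 0.65 for ligands, 0.57 for latent TGF-beta genes, 0.64 for other receptors, 0.47 for other SMADs, 0.53 for regulators, 0.40 for transcription partners, 0.46 for non-SMAD genes, 0.64 for genes known to rise and 0.70 for those known to fall with TGF-beta. The count of all genes at least 1.5-fold apart was then 3004 higher and 107 lower in NKR-P1B+ cells. It was 461 and 521 on the deposited scale, 764 and 1091 at the lower floor, 277 and 246 at the higher one and 277 and 229 when 32 was added.

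Short lists of dim genes depended on the floor. The ligand median of 0.40 became −0.071 at the lower floor, 0.0076 at the higher floor and 0.57 if both arrays had to exceed the floor. The latent TGF-beta median of 0.09 became −0.13 and 0.31 with the lower and higher floors. The median of other SMADs, 0.23, became −0.077 at the higher floor and likewise if both arrays had to exceed the floor (1 gene is left), and 0.099 with the added 32. That of regulators, 0.046, became −0.062 with the higher floor. With the lower floor of 9.6, the dim Tgfb1 had a log2 difference of −0.03 and the second Tgfbr3 probe set one of −0.50. No paired analysis was possible because each population has 1 array and the labels give no replicate numbers.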
